A study of Homo sapiens with 24 samples.

Results

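The genes described here are 10 components of the protein-folding machinery of the endoplasmic reticulum (ER) and its regulator: HSPA5, HSP90B1, XBP1, DNAJB9, CANX, CALR, PDIA4, PDIA6, CRELD2 and SDF2L1. They were chosen by name, and their probes were all those paired with one of these symbols in the array's probe table, which gave 12 probes of 47231. XBP1 and CANX had 2 probes each, and the brighter one carries the values below. All 10 genes passed the detection filter, which left 10281 genes tested of 20046 named genes.

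The study compared trabectedin, an anticancer drug whose target is the minor groove of DNA, with its solvent in cells of diffuse large B cell lymphoma. Total RNA of 2 established lymphoma lines was measured on Illumina bead arrays. U2932 represents the activated B cell-like (ABC) form of the disease, and OCI-Ly7 the germinal centre (GCB) form. Both were grown in vitro with trabectedin or with DMSO for 8 h or 24 h, which makes 8 groups of 3 arrays and 24 arrays in all. The labels give no dose and no genetic change, nor the origin of the replicates, so p-values here measure only the spread between arrays.

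Secreted and membrane proteins fold in the ER with the help of chaperones. When unfolded proteins build up there, the sensors IRE1, PERK and ATF6 start the unfolded protein response: IRE1 splices XBP1 mRNA, ATF6 is cut to a free transcription factor, and both raise transcription of chaperone genes. In the B cell lineage XBP1 is best known for driving the secretory apparatus of plasma cells.

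Array brightness and chip differed between groups. In U2932 the mean probe intensity was 539 ± 17.8 (SD, n = 3) with DMSO and 460 ± 5.54 with trabectedin at 8 h, and 543 ± 11.8 and 365 ± 21.6 at 24 h. OCI-Ly7 had 326 ± 19.5 with DMSO and 365 ± 53.7 with trabectedin at 8 h, and 366 ± 83.3 and 235 ± 45.0 at 24 h, where the dimmest DMSO array, replicate 3, read 270. Between 8623 and 12095 probes were detected per array, and the correlation of replicates over probes was between r = 0.973 and 0.998. All U2932 arrays shared 1 chip, and 9 OCI-Ly7 arrays shared another. The 3 OCI-Ly7 arrays of 24 h of trabectedin were alone on another chip, so that for this group, and between the lines, chip and group cannot be told apart. In bulk RNA, fewer cells and less RNA per cell cannot be told apart either. The B cell markers MS4A1, CD79A, CD79B, CD22 and CD74 were detected on every array, and none of 6 T cell markers was detected on all arrays of any group. Of 8 myeloid markers only CD14 was detected on all arrays of a group. The summed intensity of the 8 was between 961 and 1022 on U2932 DMSO arrays, against between 1534 and 1755 at 8 h and between 1874 and 2155 at 24 h of trabectedin, and was between 693 and 1075 over the OCI-Ly7 arrays; its part in the results was not tested. Of 8 stromal and epithelial markers, EPCAM and DCN were detected in U2932 and PECAM1 in OCI-Ly7. Their summed intensity in U2932 was between 3335 and 4056 in DMSO, between 2477 and 2838 at 8 h and between 1315 and 1641 at 24 h of trabectedin.

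The promoters are shown first, as a description. ATF6 is known to raise transcription of chaperone genes and binds the element searched. Its share among chaperone genes chosen by name is therefore not an independent result. The ER stress element (ERSE) is bound by ATF6 together with the CCAAT factor NF-Y; it was searched on both strands as CCAAT, then 9 bases of any kind, then CCACG. Windows ran from 250 bases before to 50 bases after each RefSeq start (GRCh38.p14), and all 10 genes were matched, with 16 windows. At least 1 ERSE was present in 7 of the 10 genes, against 25 of 27305 genes (0.0916%) and 27 of 35116 windows (0.0769%) over all promoters. The 25 genes include these 7. The sites are shown in the direction of transcription, with the fixed parts in capitals; those that start with CGTGG lie on the opposite strand:
HSPA5: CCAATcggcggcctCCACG
HSP90B1 site 1: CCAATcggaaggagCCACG
HSP90B1 site 2: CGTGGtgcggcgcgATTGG
XBP1: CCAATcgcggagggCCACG
CANX: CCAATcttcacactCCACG
CALR: CGTGGtcgaccatcATTGG
PDIA6: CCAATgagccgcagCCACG
CRELD2: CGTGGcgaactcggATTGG
The HSPA5 site spans positions -66 to -48 from the start, the XBP1 site -52 to -34, the CRELD2 site -80 to -62 and the HSP90B1 sites -194 to -176 and -89 to -71. The same CANX site falls in 3 overlapping windows of 4. SDF2L1 held the related ERSE-II (ATTGG, 1 base, CCACG), present in 19 of 27305 genes (0.0696%), on the opposite strand at -188 to -178. DNAJB9 and PDIA4 held neither. The unfolded protein response element TGACGTGG, which ends in CGTGG, the reverse complement of the CCACG in both motifs, was searched on both strands and found in 0.927% of genes, and it was in none of the 10. A match is a description of letters and not a bound site.

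**Figure D1:**
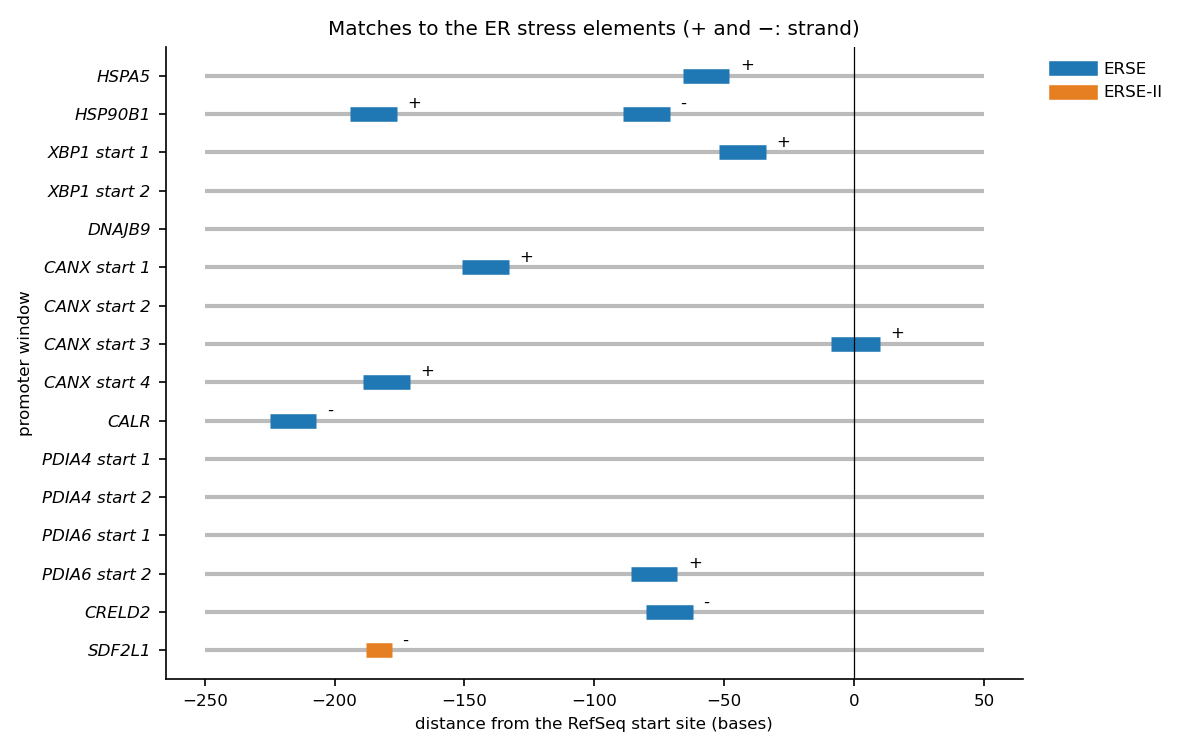
Positions of the ERSE (blue) and ERSE-II (orange) matches in the 16 RefSeq promoter windows of the 10 genes, with the x axis giving the distance from the start site in bases and + or - the strand. In 7 genes a window held an ERSE and in SDF2L1 an ERSE-II.

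Whole windows are shown for 3 genes with unlike response patterns, which depend in part on the scaling described below. HSPA5 (chr9:125241294-125241593, minus strand) rose in one line and fell in the other. CRELD2 (chr22:49918384-49918683, plus strand) was higher in all 4 comparisons, and PDIA4 (chr7:149028441-149028740, minus strand) was lower in 3. ERSE parts are in capitals:
HSPA5: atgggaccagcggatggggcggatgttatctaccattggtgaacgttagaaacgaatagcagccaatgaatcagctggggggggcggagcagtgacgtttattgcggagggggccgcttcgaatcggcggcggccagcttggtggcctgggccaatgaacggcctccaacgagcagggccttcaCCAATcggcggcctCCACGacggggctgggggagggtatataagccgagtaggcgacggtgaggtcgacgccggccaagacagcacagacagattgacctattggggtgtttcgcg
CRELD2: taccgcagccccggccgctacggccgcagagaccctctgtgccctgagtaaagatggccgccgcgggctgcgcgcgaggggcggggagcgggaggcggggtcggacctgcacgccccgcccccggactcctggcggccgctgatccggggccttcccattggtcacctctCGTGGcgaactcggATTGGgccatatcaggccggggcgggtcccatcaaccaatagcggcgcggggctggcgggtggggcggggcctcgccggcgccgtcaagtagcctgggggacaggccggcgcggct
PDIA4: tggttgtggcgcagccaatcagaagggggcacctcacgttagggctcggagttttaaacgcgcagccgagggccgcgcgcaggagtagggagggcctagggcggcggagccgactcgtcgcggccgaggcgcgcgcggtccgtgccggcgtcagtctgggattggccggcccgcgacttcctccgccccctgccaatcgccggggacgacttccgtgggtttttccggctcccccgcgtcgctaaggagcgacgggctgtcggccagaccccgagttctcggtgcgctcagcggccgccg

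Trabectedin moved the 10 genes in different directions. Levels are log2 normalised intensities, a change is trabectedin minus DMSO on that scale, and a gene is said to have risen or fallen at a limma adjusted p under 0.05 over all 10281 genes. In U2932 at 8 h, 4 genes rose (HSPA5, CANX, PDIA6 and CRELD2) and 2 fell (XBP1 and PDIA4); the shares over all genes tested were 36.4% and 39.1%. At 24 h in U2932, 4 rose (HSPA5, DNAJB9, CANX and CRELD2) and 3 fell (HSP90B1, XBP1 and PDIA4), against 38.5% and 46.1%. In OCI-Ly7 at 8 h, 2 rose (CANX and CRELD2) and 3 fell (HSPA5, DNAJB9 and SDF2L1), against 24.3% and 27.5%. At 24 h in OCI-Ly7, 2 rose (HSP90B1 and CRELD2) and 4 fell (HSPA5, XBP1, CALR and PDIA4), against 26.3% and 27.2%. The median size of change of the 10, without sign, was 0.34 against 0.57 over all genes in U2932 at 8 h, 0.66 against 0.93 at 24 h, 0.46 against 0.45 in OCI-Ly7 at 8 h and 0.57 against 0.48 at 24 h. HSPA5, HSP90B1 and DNAJB9 each had called changes in both directions.

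**Figure D2:**
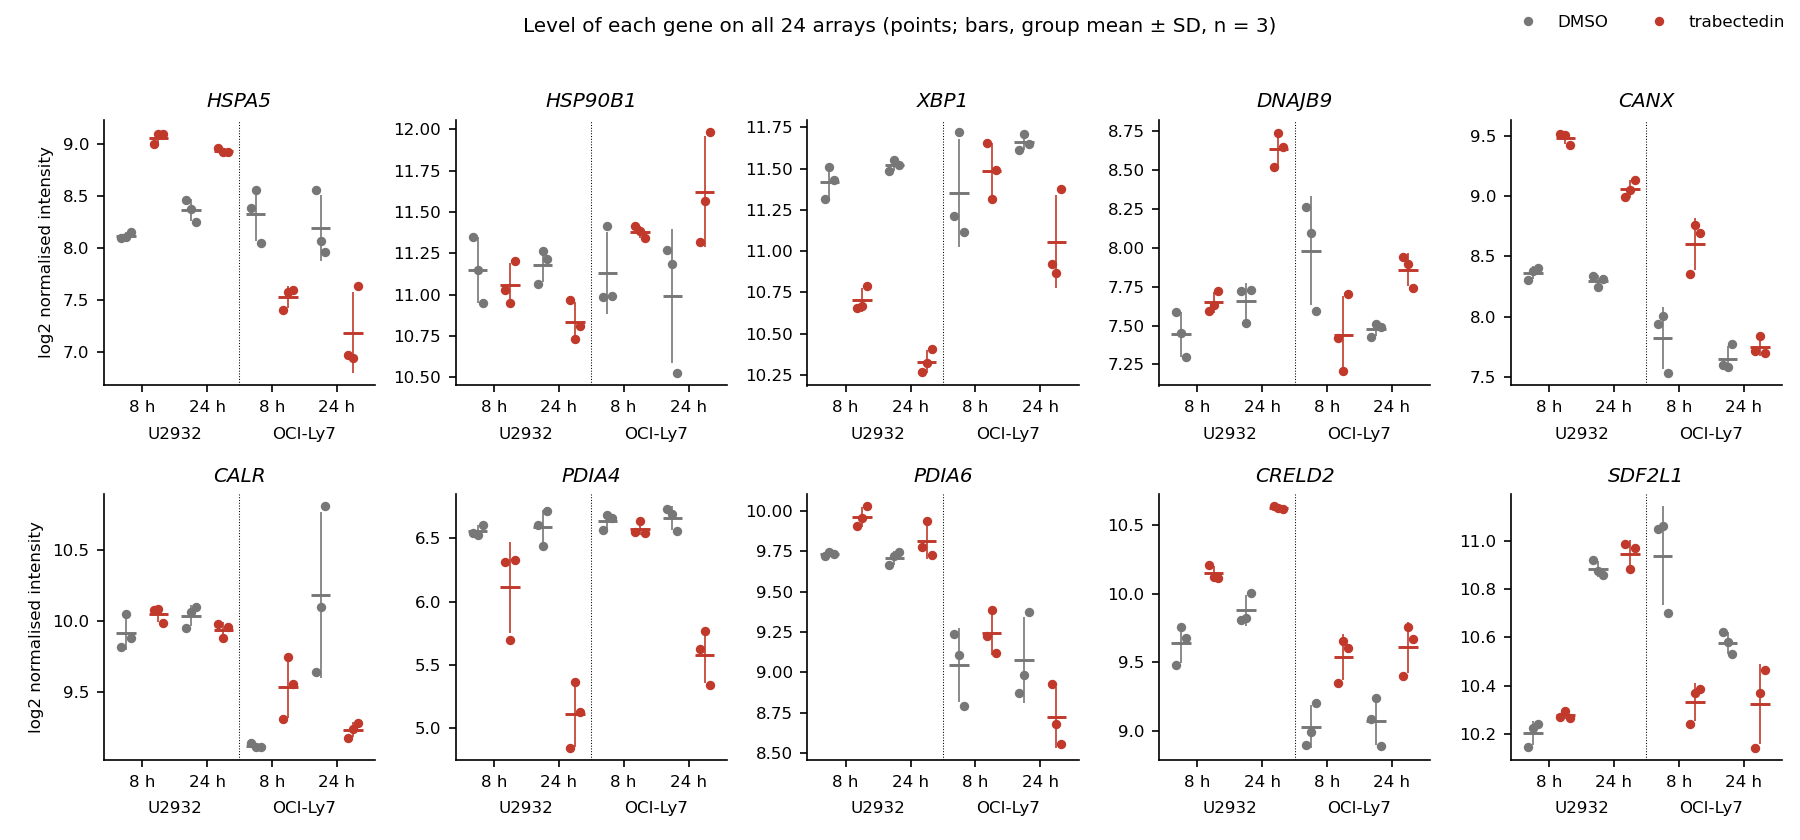
Log2 normalised intensity (y axis) of each gene on all 24 arrays, by line and time (x axis); points are arrays, bars the group mean ± SD with n = 3, grey DMSO and red trabectedin. HSPA5 lay above DMSO on every treated U2932 array and below it on every treated OCI-Ly7 array, while CRELD2 lay above DMSO at both times in both lines. With median scaling in place of quantile normalisation HSPA5 in U2932 at 24 h turned to lower. CRELD2 in OCI-Ly7 at 24 h turned sign without a call (adjusted p = 0.652).

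These values are relative to the other transcripts on an array. With each array scaled to its median in place of quantile normalisation, the median change of all genes was -0.44 in U2932 at 8 h, -0.93 at 24 h, 0.04 in OCI-Ly7 at 8 h and -0.43 at 24 h. The counts of higher and lower among the 10 were then 2 and 5 in U2932 at 8 h, 0 and 9 at 24 h, 1 and 1 in OCI-Ly7 at 8 h, and 0 and 6 at 24 h. Over all genes 17.1% were then higher and 56.8% lower in U2932 at 8 h, 16.5% and 67.4% at 24 h, 15.9% and 17.1% in OCI-Ly7 at 8 h and 5.45% and 39.4% at 24 h. Against that median, under the same scaling, HSPA5 lay 0.74 above it in U2932 at 8 h and 0.34 above it at 24 h, and 0.86 below it in OCI-Ly7 at 8 h and 1.24 below it at 24 h. XBP1 lay 0.44 and 0.82 below the median in U2932, and CRELD2 0.54 and 1.02 above it. The median that scaled each array was taken over all 47231 probes, undetected ones included. Differences in brightness between arrays can therefore remain in the expressed genes under this scaling. How far they do was not tested. Where this scaling turns the sign of a result printed for the 10 genes, ends its call or adds one, that is said beside the result.

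**Figure D3:**
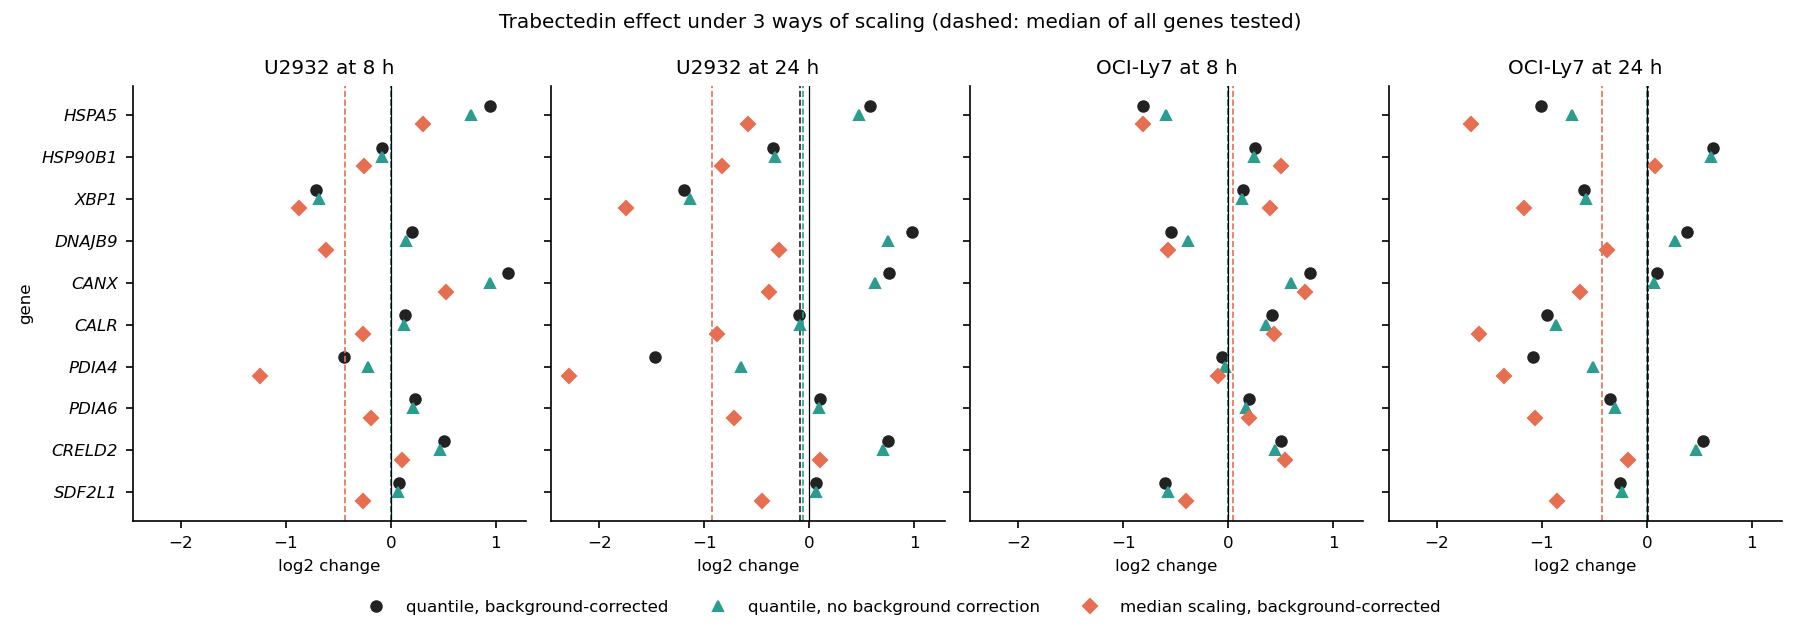
Log2 change with trabectedin (x axis) of the 10 genes (y axis) in the 4 comparisons under 3 ways of scaling; dashed lines mark the median of all genes tested under each. In U2932 at 24 h median scaling moved the median of all genes to -0.93 and turned HSPA5, DNAJB9, CANX, PDIA6 and SDF2L1 to lower.

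HSPA5 encodes BiP, the Hsp70 chaperone of the ER lumen and the repressor of the 3 stress sensors. In U2932 it read 9.0, 9.10 and 9.10 on the 3 arrays after 8 h of trabectedin against 8.10, 8.11 and 8.16 in DMSO, and 8.96, 8.93 and 8.93 against 8.46, 8.38 and 8.25 at 24 h. Every treated array was above every DMSO array at both times. The rise was 0.94 ± 0.07 (SE, n = 3, adjusted p = 3.60e-08), or 1.92-fold, at 8 h and 0.57 ± 0.07 (adjusted p = 2.75e-06) at 24 h. Median scaling gave 0.31 (adjusted p = 0.00768) at 8 h and -0.59 at 24 h. Before normalisation the HSPA5 intensity was between 636 and 733 with trabectedin against between 602 and 685 in DMSO at 8 h, and between 351 and 430 against between 702 and 761 at 24 h.

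In OCI-Ly7 the direction was opposite, though not at 24 h with median scaling, under which HSPA5 was lower in both lines. HSPA5 read 7.40, 7.57 and 7.60 after 8 h of trabectedin against 8.39, 8.56 and 8.05 in DMSO, and 6.97, 6.94 and 7.63 against 8.56, 8.06 and 7.96 at 24 h. The groups did not overlap at either time. HSPA5 fell by 0.81 ± 0.21 (SE, n = 3, adjusted p = 0.00538) at 8 h and by 1.01 ± 0.21 (adjusted p = 0.00108), or 2.02-fold, at 24 h. Ordered by mean, its levels ran from U2932 with trabectedin at 8 h (9.07) and 24 h (8.94), through the 4 DMSO groups, with means between 8.12 and 8.36, to OCI-Ly7 with trabectedin at 8 h (7.52) and 24 h (7.18). The 4 DMSO groups overlapped their neighbours in this order, as did the last 2.

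DNAJB9 encodes ERdj4, a J-domain cochaperone of BiP and a target of spliced XBP1. In U2932 it read 7.59, 7.63 and 7.72 against 7.59, 7.45 and 7.30 at 8 h. The difference of 0.21 ± 0.09 (SE, n = 3, adjusted p = 0.0585) missed the threshold. With median scaling DNAJB9 changed by -0.62 there and was called (adjusted p = 0.000357). At 24 h it read 8.52, 8.74 and 8.65 against 7.72, 7.51 and 7.73, a rise of 0.98 ± 0.09 (adjusted p = 3.74e-07) that was -0.29 with median scaling. All treated arrays of 24 h were above all DMSO arrays. In OCI-Ly7 at 8 h it read 7.42, 7.21 and 7.70 against 8.26, 8.09 and 7.59. These groups overlapped, and DNAJB9 fell by 0.54 ± 0.17 (adjusted p = 0.0186). The call was lost with median scaling (-0.57, adjusted p = 0.184), without DMSO replicate 1 (-0.40, adjusted p = 0.0988), without DMSO replicate 2 (-0.49, adjusted p = 0.0672) and without trabectedin replicate 2 (-0.42, adjusted p = 0.0885). At 24 h it read 7.94, 7.89 and 7.74 against 7.43, 7.51 and 7.49, a difference of 0.38 ± 0.17 (adjusted p = 0.0796) that median scaling turned to -0.37 and that passed with the spread of all 24 arrays (adjusted p = 0.0235).

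SDF2L1, a luminal protein that works with another J-domain cochaperone of BiP, differed little in U2932, by 0.07 ± 0.06 at 8 h and 0.06 ± 0.06 at 24 h (SE, n = 3, adjusted p = 0.261 and 0.329), and by -0.26 and -0.45 with median scaling (adjusted p = 0.0113 and 0.000115). In OCI-Ly7 it read 10.24, 10.37 and 10.39 after 8 h of trabectedin against 11.05, 11.06 and 10.70 in DMSO. All treated arrays were lower, and SDF2L1 fell by 0.60 ± 0.14 (adjusted p = 0.00220). At 24 h the difference was -0.25 ± 0.14 (adjusted p = 0.137), which passed with the spread of all 24 arrays (adjusted p = 0.0365). Median scaling ended the 8 h call (-0.40, adjusted p = 0.232) and gave one at 24 h (-0.86, adjusted p = 0.0120).

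XBP1, the transcription factor, fell in 3 of the 4 comparisons. In U2932 it read 10.65, 10.67 and 10.79 after 8 h of trabectedin against 11.32, 11.51 and 11.43 in DMSO, and 10.26, 10.32 and 10.41 against 11.48, 11.55 and 11.52 at 24 h. The groups were well apart, and XBP1 fell by 0.71 ± 0.07 (SE, n = 3, adjusted p = 1.01e-06) and by 1.19 ± 0.07 (adjusted p = 3.52e-09). In OCI-Ly7 it read 11.65, 11.32 and 11.49 against 11.21, 11.72 and 11.12 at 8 h, overlapping values with a difference of 0.14 ± 0.18 (adjusted p = 0.557). At 24 h it read 10.92, 10.87 and 11.38 against 11.61, 11.71 and 11.65, and fell by 0.60 ± 0.18 (adjusted p = 0.0118). With median scaling the 3 falls were -0.87, -1.75 and -1.17. Its other probe changed by -0.81, -1.61, -0.03 and -0.72 in the same 4 comparisons. The 2 probes are annotated to different XBP1 transcript records, but where they lie on the mRNA was not used here, so spliced and unspliced XBP1 were not told apart. XBP1 levels were highest in OCI-Ly7 DMSO at 24 h (11.66) and lowest in U2932 with trabectedin at 24 h (10.33), and both treated U2932 groups lay below all other groups without overlap.

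HSP90B1 encodes GRP94, the Hsp90 chaperone of the ER, which folds Toll-like receptors and integrins. In U2932 it read 11.03, 10.95 and 11.20 against 11.35, 11.15 and 10.95 at 8 h, values that overlapped (-0.09 ± 0.11, SE, n = 3, adjusted p = 0.481). At 24 h it read 10.97, 10.73 and 10.81 against 11.06, 11.26 and 11.22, all lower, and fell by 0.34 ± 0.11 (adjusted p = 0.0103). That call was lost with the spread of all 24 arrays (adjusted p = 0.0773), and median scaling gave -0.84. In OCI-Ly7 the difference at 8 h was 0.25 ± 0.21 (adjusted p = 0.345). At 24 h the arrays read 11.32, 11.56 and 11.99 against 11.27, 11.18 and 10.52, with no overlap. This rise of 0.63 ± 0.21 (adjusted p = 0.0215) was 0.08 with median scaling, which ended the call (adjusted p = 0.847). It rested partly on single arrays: without DMSO replicate 3, the dim array, it was 0.40 (adjusted p = 0.102), and without trabectedin replicate 3 it was 0.45 (adjusted p = 0.0968). With the spread of the compared groups only, its adjusted p was 0.0623.

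CANX and CALR encode calnexin and calreticulin, the membrane-bound and the soluble lectin chaperone of newly made glycoproteins. CANX read 9.51, 9.51 and 9.42 in U2932 after 8 h of trabectedin against 8.30, 8.38 and 8.41 in DMSO, and 8.99, 9.05 and 9.13 against 8.33, 8.25 and 8.31 at 24 h. Treated arrays were higher throughout. CANX rose by 1.12 ± 0.06 (SE, n = 3, adjusted p = 5.28e-09), or 2.17-fold, at 8 h and by 0.76 ± 0.06 (adjusted p = 1.17e-07) at 24 h. Median scaling gave 0.52 (adjusted p = 0.000295) and -0.38. In OCI-Ly7 at 8 h it read 8.36, 8.76 and 8.69 against 7.94, 8.01 and 7.53 and rose by 0.78 ± 0.15 (adjusted p = 0.000855). At 24 h the groups overlapped, with a difference of 0.10 ± 0.15 (adjusted p = 0.614), or -0.64 with median scaling. The other CANX probe changed by 1.14, 0.93, 1.24 and 0.26 in the 4 comparisons.

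CALR passed the threshold in 1 of the 4 comparisons. In U2932 its differences were 0.14 ± 0.07 at 8 h and -0.10 ± 0.07 at 24 h (SE, n = 3, adjusted p = 0.113 and 0.226), with overlapping arrays. Median scaling made both calls, at -0.26 and -0.88 (adjusted p = 0.0132 and 6.79e-08). Without U2932 DMSO replicate 2 the 8 h difference was 0.20 (adjusted p = 0.0254). In OCI-Ly7 at 24 h it read 9.18, 9.24 and 9.28 against 9.64, 10.10 and 10.80 in DMSO, and fell by 0.95 ± 0.22 (adjusted p = 0.00266). The treated arrays lay close together and the DMSO arrays were spread over more than 1 unit, with replicate 3 the highest. At 8 h it read 9.31, 9.74 and 9.55 against 9.14, 9.11 and 9.11, which did not overlap, and the difference of 0.41 ± 0.22 (adjusted p = 0.139) missed the threshold; it passed with the spread of all 24 arrays (adjusted p = 0.0452) and of the compared groups only (adjusted p = 0.0204).

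PDIA4 and PDIA6 encode ERp72 and P5, disulfide isomerases of the ER. The PDIA4 probe was detected on 18 of 24 arrays, and the other 11 probes on all 24. In U2932 it read 6.31, 5.70 and 6.33 after 8 h of trabectedin, detected on 2 of 3 arrays, against 6.54, 6.52 and 6.61 in DMSO. PDIA4 fell by 0.45 ± 0.16 (SE, n = 3, adjusted p = 0.0263), all treated arrays being lower. That call rested on single arrays: without trabectedin replicate 2 the change was -0.24 (adjusted p = 0.123), and without DMSO replicate 1, 2 or 3 the adjusted p was 0.0561, 0.0501 or 0.0716, at changes of -0.45, -0.46 and -0.42. At 24 h it was not detected on any treated array, where the values were 4.84, 5.37 and 5.12 against 6.60, 6.44 and 6.71. It was therefore at least 1.45-fold lower, taken against the lowest detected signal on each treated array (adjusted p = 2.25e-06).

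In OCI-Ly7, PDIA4 read 6.55, 6.63 and 6.54 against 6.57, 6.68 and 6.66 at 8 h, which overlapped (-0.06 ± 0.13, SE, n = 3, adjusted p = 0.733). At 24 h it read 5.62, 5.77 and 5.34 against 6.73, 6.69 and 6.55, detected on 1 of 3 treated arrays, and fell by 1.08 ± 0.13 (adjusted p = 1.37e-05). With median scaling the PDIA4 change in U2932 at 8 h was -1.25. Without background correction the PDIA4 changes were smaller, -0.22 and -0.65 in U2932 and -0.51 in OCI-Ly7 at 24 h. PDIA6 read 9.91, 9.95 and 10.03 in U2932 at 8 h against 9.72, 9.75 and 9.73, a rise of 0.23 ± 0.07 (adjusted p = 0.00789). Median scaling gave -0.19 and ended that call (adjusted p = 0.123), and the spread of all 24 arrays also ended it (adjusted p = 0.124). The other PDIA6 differences were 0.10 ± 0.07 in U2932 at 24 h, 0.20 ± 0.17 in OCI-Ly7 at 8 h and -0.36 ± 0.17 at 24 h (adjusted p = 0.166, 0.352 and 0.0915). The first was -0.72 with median scaling and was then called (adjusted p = 1.03e-05). The last passed with the spread of all 24 arrays (adjusted p = 0.0219) and with median scaling (-1.07, adjusted p = 0.00404).

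CRELD2, a luminal protein with disulfide isomerase activity that is induced by ER stress, was the only one of the 10 that rose in all 4 comparisons. In U2932 it read 10.21, 10.13 and 10.11 after 8 h of trabectedin against 9.48, 9.76 and 9.68, and 10.64, 10.62 and 10.62 against 9.81, 9.82 and 10.01 at 24 h. In OCI-Ly7 it read 9.35, 9.66 and 9.61 against 8.90, 9.0 and 9.20 at 8 h, and 9.40, 9.76 and 9.67 against 9.09, 9.24 and 8.89 at 24 h. Treated and DMSO arrays did not overlap in any of the 4. The rises were 0.51 ± 0.08 and 0.75 ± 0.08 in U2932 (SE, n = 3, adjusted p = 7.71e-05 and 1.50e-06). In OCI-Ly7 they were 0.51 ± 0.15 and 0.54 ± 0.15 (adjusted p = 0.0122 and 0.00811). With median scaling the 4 changes were 0.10, 0.10, 0.54 and -0.18, none past the threshold, while the median of all genes was -0.44, -0.93, 0.04 and -0.43. In OCI-Ly7 at 8 h the call was also lost without DMSO replicate 1 (0.44, adjusted p = 0.0564) and without trabectedin replicate 2 (0.45, adjusted p = 0.0512). Before normalisation, CRELD2 intensity in U2932 was between 1404 and 1491 with trabectedin against between 1383 and 1626 in DMSO at 8 h, and between 1239 and 1539 against between 1653 and 1946 at 24 h.

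**Figure D4:**
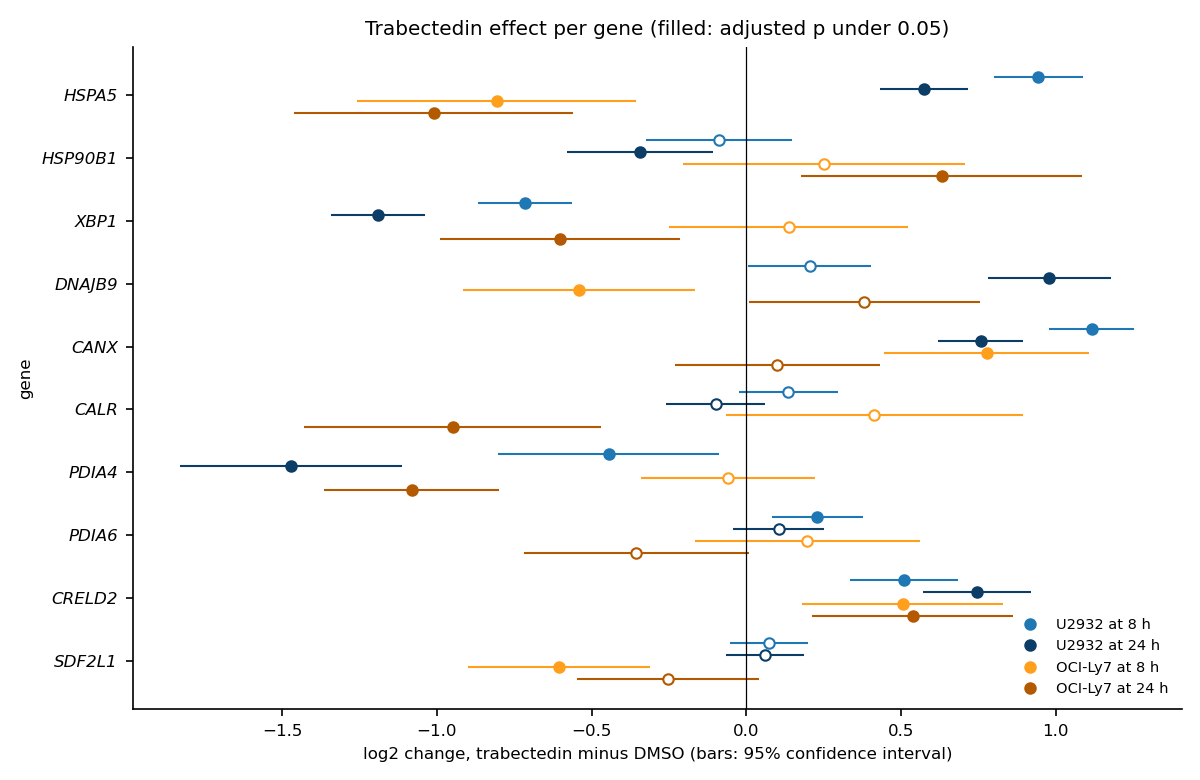
Log2 change with trabectedin (x axis, bars 95% confidence interval) for each gene (y axis) in the 4 comparisons; filled points passed the adjusted p threshold. CRELD2 was to the right of 0 in all 4 and HSPA5 changed side between the lines. Of the called rises, HSPA5, DNAJB9 and CANX in U2932 at 24 h were lower with median scaling. CRELD2 in OCI-Ly7 at 24 h and PDIA6 in U2932 at 8 h turned sign without a call (adjusted p = 0.652 and 0.123). Some changes not called here also turned sign.

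Genes with an ERSE were called in both directions, and the balance depended on the scaling. Of the 7 genes with an ERSE, 4 rose and 1 fell in U2932 at 8 h, 3 and 2 at 24 h, 2 and 1 in OCI-Ly7 at 8 h and 2 and 3 at 24 h, beside the 36.4% and 39.1%, 38.5% and 46.1%, 24.3% and 27.5%, and 26.3% and 27.2% of all genes. With median scaling 2 rose and 2 fell in U2932 at 8 h, 0 and 6 at 24 h, 1 and 1 in OCI-Ly7 at 8 h and 0 and 4 at 24 h. Of 18 other genes with an ERSE in the same window 9 were tested, and 2 rose and 3 fell in U2932 at 8 h, 2 and 4 at 24 h, 3 and 3 in OCI-Ly7 at 8 h and 2 and 3 at 24 h; median scaling gave 1 and 4, 1 and 7, 2 and 2, and 1 and 4. One of them, FICD, encodes the enzyme that adds AMP to BiP and removes it, and is named here after its values were seen. FICD rose by 2.03 ± 0.07 (SE, n = 3, adjusted p = 1.00e-10) in U2932 at 8 h, from 6.40 ± 0.12 (SD) to 8.43 ± 0.04, and by 3.57 ± 0.07 (adjusted p = 3.81e-13) at 24 h. In OCI-Ly7 it rose by 1.15 ± 0.16 (adjusted p = 4.75e-05) and 2.05 ± 0.16 (adjusted p = 2.77e-07). Median scaling gave 1.39, 2.68, 1.15 and 1.33, and leaving out the background correction 1.35, 2.68, 0.60 and 1.24.

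HSPA5 had opposite responses in the lines. With median scaling this held at 8 h, while at 24 h HSPA5 was lower in both (-0.59 in U2932 and -1.67 in OCI-Ly7). Its change in OCI-Ly7 minus that in U2932 was -1.75 ± 0.23 (SE, adjusted p = 4.11e-06) at 8 h and -1.59 ± 0.23 (adjusted p = 2.97e-06) at 24 h, in a fit over all 24 arrays. These were the 2 largest differences among the 10 genes, at -1.12 and -1.08 with median scaling, under which XBP1 (1.27) and PDIA4 (1.16) differed by more at 8 h. At 8 h, 1 of the 10 had a higher change in OCI-Ly7 and 3 a lower one, against 22.5% and 15% of all genes. XBP1 differed by 0.85 ± 0.20 (adjusted p = 0.00181), SDF2L1 by -0.68 ± 0.14 (adjusted p = 0.000869) and DNAJB9 by -0.75 ± 0.20 (adjusted p = 0.00568). Median scaling, with a median of all genes of 0.60, gave 4 higher and 1 lower. It gave -0.14 (adjusted p = 0.685) for SDF2L1 and 0.05 (adjusted p = 0.916) for DNAJB9. It added calls for HSP90B1 (0.76, adjusted p = 0.0489), CALR (0.70, adjusted p = 0.0254) and PDIA4 (adjusted p = 0.00123). At 24 h, 2 were higher and 5 lower, against 38.1% and 25.4%. HSP90B1 differed by 0.97 ± 0.25 and XBP1 by 0.59 ± 0.20 (adjusted p = 0.00164 and 0.0128). The lower ones beside HSPA5 were CALR at -0.85 ± 0.25, CANX at -0.66 ± 0.17, DNAJB9 at -0.60 ± 0.20 and PDIA6 at -0.46 ± 0.18 (adjusted p = 0.00473, 0.00156, 0.0128 and 0.0339). Median scaling, with a median of all genes of 0.51, gave 3 higher and 2 lower, HSPA5 and CALR (-0.72). It added a call for PDIA4 (0.93, adjusted p = 0.00517). It ended the calls of CANX (-0.25), DNAJB9 (-0.08) and PDIA6 (-0.35), with adjusted p between 0.303 and 0.854. Without OCI-Ly7 DMSO replicate 3 of 24 h the CALR difference was -0.54 and that of PDIA6 -0.31 (adjusted p = 0.00937 and 0.119). The PDIA6 call was also lost without trabectedin replicate 2 of U2932 (-0.40), DMSO replicate 1 (-0.44) or 2 (-0.46) of U2932, or trabectedin replicate 2 (-0.44) or 3 (-0.38) of OCI-Ly7, all of 24 h. CRELD2 did not pass, with differences of -0.00 at 8 h (95% interval -0.36 to 0.35; 0.43 with median scaling) and -0.21 (-0.56 to 0.14) at 24 h.

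**Figure D5:**
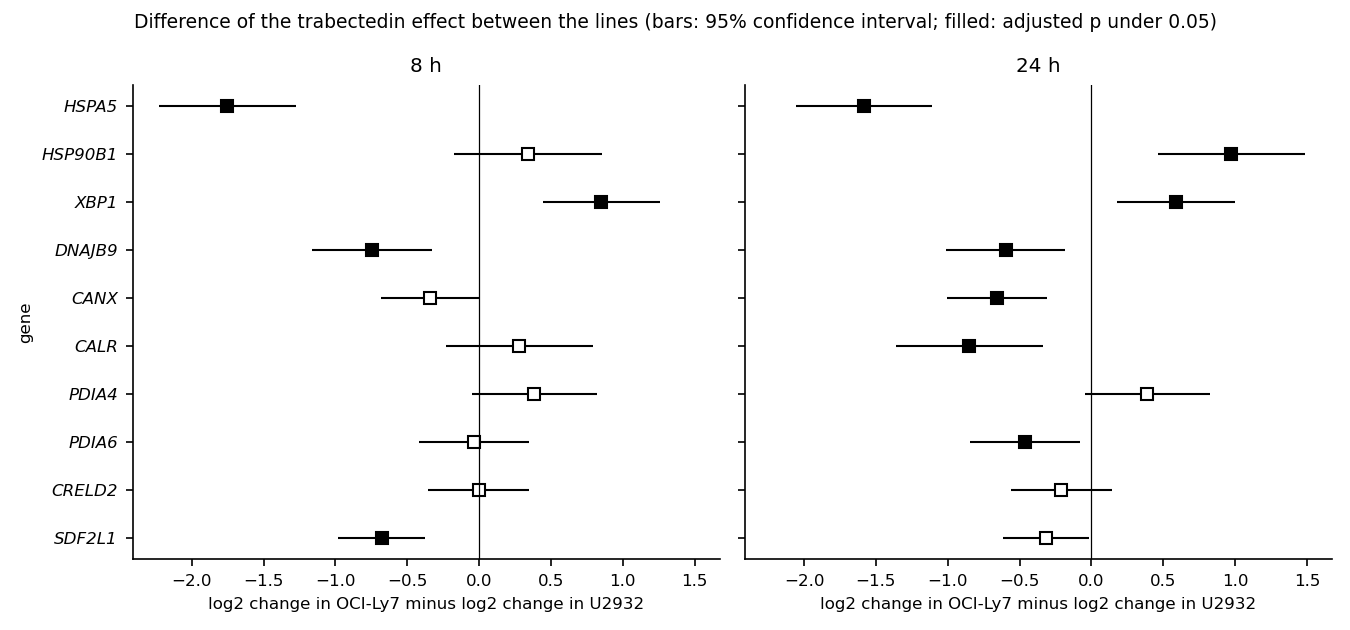
Difference of the trabectedin effect between the lines (x axis, log2 change in OCI-Ly7 minus log2 change in U2932, bars 95% confidence interval) for each gene (y axis) at 8 h and 24 h; filled squares passed the adjusted p threshold. HSPA5 lay farthest from 0, at -1.75 and -1.59; with median scaling it was at -1.12 and -1.08, behind XBP1 and PDIA4 at 8 h, and the DNAJB9 difference at 8 h was 0.05 in place of -0.75.

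Between 8 h and 24 h the response changed in several of the genes. In U2932 1 effect was higher at 24 h and 4 were lower, against 23.7% and 32.5% of all genes: DNAJB9 by 0.78 ± 0.13, HSPA5 by -0.37 ± 0.09, XBP1 by -0.48 ± 0.10, CANX by -0.36 ± 0.09 and PDIA4 by -1.03 ± 0.23 (SE, adjusted p = 0.000270, 0.00458, 0.00138, 0.00441 and 0.00244). The PDIA4 difference includes values in the background and was -0.44 without background correction. With the spread of all 24 arrays HSPA5, XBP1 and CANX lost their calls (adjusted p = 0.211, 0.0586 and 0.0901). Median scaling added calls for HSP90B1 (-0.58, adjusted p = 0.00604), CALR (-0.62, adjusted p = 0.000444) and PDIA6 (-0.53, adjusted p = 0.00732). In OCI-Ly7 also 1 was higher and 4 lower, against 16.7% and 14.3%: DNAJB9 by 0.92 ± 0.25, XBP1 by -0.74 ± 0.25, CANX by -0.68 ± 0.22, CALR by -1.36 ± 0.32 and PDIA4 by -1.02 ± 0.19 (adjusted p = 0.0128, 0.0413, 0.0311, 0.00602 and 0.00155). DNAJB9 thus had a higher change, and XBP1, CANX and PDIA4 a lower one, at 24 h in both lines; the DNAJB9 differences were 0.33 and 0.19 with median scaling, neither past the threshold. The OCI-Ly7 calls for XBP1 and CANX were weak. Leaving out 1 array lost the XBP1 call in 8 of 12 cases, at differences between -0.62 and -0.74. It lost the CANX call in 6 of 12, between -0.53 and -0.66. Median scaling added a call for PDIA6 in OCI-Ly7 (-1.27, adjusted p = 0.0225). Part of the OCI-Ly7 differences lay in the DMSO arrays. Mean CALR went from 9.12 at 8 h to 10.18 at 24 h in DMSO, and from 9.53 to 9.23 with trabectedin. Mean DNAJB9 went from 7.98 to 7.48 in DMSO, and from 7.44 to 7.86 with trabectedin.

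In DMSO the lines differed in 5 of the 10. OCI-Ly7 was lower in CRELD2 by 0.71 ± 0.09, PDIA6 by 0.66 ± 0.09 and CANX by 0.59 ± 0.08, without overlap between the 6 arrays of each line, and in CALR by 0.32 ± 0.12 with overlap (SE, adjusted p = 1.22e-07, 1.13e-06, 1.22e-06 and 0.0243). SDF2L1 was higher by 0.21 ± 0.07 (adjusted p = 0.0122), with overlap and with -0.58 under median scaling. The counts of 1 higher and 4 lower stand against 32.4% and 34.9% of all genes. HSPA5 and XBP1 differed by 0.02 ± 0.11 and 0.03 ± 0.10 (95% intervals -0.22 to 0.26 and -0.17 to 0.24). Median scaling, with a median of all genes of -0.70, moved these to -0.78 and -0.71. It also gave calls for HSP90B1 (-0.86), DNAJB9 (-0.62) and PDIA4 (-0.69), so that all 10 genes were then lower in OCI-Ly7. That count stands beside a median of all genes of -0.70. The share of all genes lower under this scaling was not computed here. The CALR difference was -0.19 (adjusted p = 0.102) without OCI-Ly7 DMSO replicate 1 of 24 h, -0.30 (adjusted p = 0.0514) without replicate 2 of 24 h and -0.29 (adjusted p = 0.0608) without U2932 DMSO replicate 2 of 8 h.

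Culture time alone moved few of the genes past the threshold. In U2932 DMSO arrays HSPA5 rose by 0.24 ± 0.07 and SDF2L1 by 0.68 ± 0.06 from 8 h to 24 h (SE, adjusted p = 0.0258 and 4.82e-05), 2 higher and 0 lower of 10 against 7.22% and 8.37% of all genes. SDF2L1 read 10.15, 10.22 and 10.24 at 8 h and 10.92, 10.88 and 10.86 at 24 h, and the treated arrays of U2932 stood at like levels, with 10.27, 10.30 and 10.27 at 8 h and 10.99, 10.88 and 10.97 at 24 h. The HSPA5 call was lost without DMSO replicate 1 or 2 of 8 h (0.23 and 0.24) and of 24 h (0.20 and 0.24). It was also lost with median scaling (0.21, adjusted p = 0.161). In OCI-Ly7 only CALR passed, rising by 1.06 ± 0.22 (adjusted p = 0.0162) from 9.14, 9.11 and 9.11 to 9.64, 10.10 and 10.80, so 1 higher and 0 lower against 4.44% and 6%. That call was lost without DMSO replicate 1 or 2 of 8 h (1.07 and 1.06) or replicate 2 of 24 h (1.10). It was also lost with median scaling (1.03, adjusted p = 0.113). DNAJB9 differed by -0.51 (adjusted p = 0.0793) and SDF2L1 by -0.36 (adjusted p = 0.108) in OCI-Ly7. Both passed with the spread of all 24 arrays (adjusted p = 0.0120 and 0.0128). DNAJB9 also passed without DMSO replicate 3 of 8 h (-0.70, adjusted p = 0.0243).

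Around these genes, the stress sensors and their transcription factors moved in both directions. Of 16 tested, 7 rose and 6 fell in U2932 at 8 h and again at 24 h, and in OCI-Ly7 2 rose and 7 fell at 8 h, and 2 and 6 at 24 h. Over all genes 36.4% rose and 39.1% fell, 38.5% and 46.1%, 24.3% and 27.5%, and 26.3% and 27.2% in the same comparisons. The median change of the list was -0.06, 0.13, -0.40 and -0.14 in the 4 comparisons, beside 0.00, -0.09, 0.00 and 0.01 over all genes. With median scaling the counts were 3 and 8, 5 and 9, 1 and 4, and 0 and 6. ATF6, the sensor that binds the ERSE once cut, was not detected on any treated U2932 array, at least 6.20-fold lower at 8 h and at least 5.40-fold lower at 24 h, and changed by -2.62 ± 0.20 and -2.16 ± 0.20 in OCI-Ly7 (SE, n = 3, adjusted p = 7.92e-07 and 1.76e-06). CREB3L2, a membrane-bound factor of the ATF6 type, changed by -2.69 ± 0.11, -2.76 ± 0.11, -1.68 ± 0.23 and -1.59 ± 0.23 in the 4 comparisons. DDIT3 (CHOP), a target of PERK signalling, rose by 1.14 ± 0.08 and 2.05 ± 0.08 in U2932, and PPP1R15A (GADD34), which ends that signalling, by 1.91 ± 0.07 and 1.62 ± 0.07, and by 1.37 ± 0.27 in OCI-Ly7 at 24 h. In OCI-Ly7 DDIT3 fell by 0.86 ± 0.30 at 8 h (adjusted p = 0.0295) and differed by 0.74 ± 0.30 at 24 h (adjusted p = 0.0553). With median scaling DDIT3 changed by 0.39, 0.86, -0.89 and -0.00, and PPP1R15A by 1.48 and 0.85 in U2932 and 0.65 in OCI-Ly7 at 24 h; the calls of DDIT3 in OCI-Ly7 at 8 h and PPP1R15A at 24 h were lost.

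Other ER folding factors rose in 19 and fell in 12 of 36 tested in U2932 at 8 h, 16 and 15 at 24 h, 13 and 9 in OCI-Ly7 at 8 h and 9 and 14 at 24 h. With median scaling these counts were 8 and 17, 4 and 25, 8 and 5, and 0 and 18. The median change, without that scaling, was 0.23, -0.01, 0.35 and -0.18. SIL1, the nucleotide exchange factor of BiP, was detected on 1 of 3 treated U2932 arrays at 8 h, falling by 1.28 ± 0.11 (SE, n = 3, adjusted p = 3.45e-07), and on none at 24 h, at least 2.08-fold lower; the 8 h change was -0.62 without background correction. DNAJC10, a J-domain disulfide reductase, changed by -2.11 ± 0.09 in U2932 and -1.49 ± 0.15 in OCI-Ly7 at 24 h. SDF2, a paralogue of SDF2L1, rose by 1.32 ± 0.06 and 1.28 ± 0.16 at 24 h in the 2 lines (0.59 and 0.53 with median scaling). Of 27 ER-associated degradation genes, 11 rose and 12 fell in U2932 at 8 h, 11 and 13 at 24 h, 10 and 8 in OCI-Ly7 at 8 h and 7 and 8 at 24 h, with medians of -0.03, -0.06, 0.17 and -0.19. With median scaling these counts were 5 and 16, 7 and 18, 6 and 6, and 0 and 13. The shares of all genes given beside the stress sensors also stand beside the counts of the folding and degradation lists. The ubiquitin-conjugating enzyme gene UBE2J1 changed by -2.28 ± 0.08, -4.02 ± 0.08, -2.28 ± 0.21 and -1.79 ± 0.21, and DERL3, a Derlin of the retrotranslocation machinery, rose by 1.93 ± 0.06 in U2932 at 24 h (0.66 with median scaling, 1.21 without background correction).

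Of 32 translocon, signal peptidase and N-glycosylation genes, 12 rose and 13 fell in U2932 at 8 h, 7 and 19 at 24 h, 9 and 11 in OCI-Ly7 at 8 h and 4 and 14 at 24 h. With median scaling these were 8 and 14, 5 and 23, 7 and 3, and 1 and 21, so the balance in OCI-Ly7 at 8 h turned. The median change of that list at 24 h was -0.31 in U2932 and -0.34 in OCI-Ly7, beside -0.09 and 0.01 over all genes. MAGT1, a subunit of the oligosaccharyltransferase, rose in all 4, by 1.27 ± 0.10, 2.12 ± 0.10, 0.72 ± 0.24 and 1.73 ± 0.24, and kept that direction with median scaling. Of 13 genes of the plasma cell and B cell identity programme, 2 rose and 9 fell in U2932 at 8 h, 2 and 10 at 24 h, and 2 and 6 at both times in OCI-Ly7, with medians of -0.72, -1.85, -0.36 and -0.15. With median scaling these were 1 and 9, 1 and 12, 1 and 3, and 1 and 7, with medians of -1.47, -2.57, -0.03 and -0.89. The list holds plasma cell genes and B cell factors such as PAX5, BCL6, BACH2 and SPIB, so its counts do not measure the plasma cell genes alone. SLAMF7 rose in all 4, by 1.32 ± 0.11 (0.72 with median scaling), 1.90 ± 0.11, 0.81 ± 0.20 and 1.07 ± 0.20. It was detected on 1 of 3 OCI-Ly7 DMSO arrays at each time. BACH2 changed by -2.79 ± 0.34 and -2.72 ± 0.34 in OCI-Ly7. The shares of all genes to set beside the counts of all 5 lists are 36.4% higher and 39.1% lower, 38.5% and 46.1%, 24.3% and 27.5%, and 26.3% and 27.2%, and under median scaling those given above for that scaling. PRDM1, the plasma cell regulator that acts before XBP1, fell by 0.68 in U2932 at 8 h (adjusted p = 0.000506), detected on 2 of 3 treated arrays. At 24 h no treated U2932 array detected it, and it was at least 1.10-fold lower (adjusted p = 2.15e-06). In OCI-Ly7 at 8 h it was not detected in either group. PRDM1 was at least 1.66-fold higher in OCI-Ly7 at 24 h (adjusted p = 0.000121), where it was not detected on any DMSO array. IRF4, which acts with it, rose by 0.47 ± 0.07 and 0.18 ± 0.07 in U2932 and by 0.53 ± 0.13 in OCI-Ly7 at 8 h, and differed by -0.15 ± 0.13 at 24 h (adjusted p = 0.378). With median scaling the 4 values were 0.01 (adjusted p = 0.936), -0.79, 0.50 (adjusted p = 0.173) and -0.89.

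Likeness of pattern was taken over the 8 group means, each minus the mean of its line, and is a description without a test; all genes shared the same arrays. The genes most like HSPA5 were SH2D1A, POLH, GPC2, PWWP2B and CATSPER2P1, with Pearson r between 0.921 and 0.954. Those most like XBP1 were SEMA4A, ATP13A3, MMD, EDEM3 and GTF2A2, with r between 0.988 and 0.994. Among the 10 genes, XBP1 and PDIA4 ran most alike (r = 0.89), followed by CANX and PDIA6 (r = 0.71). HSPA5 and HSP90B1 ran in opposite ways (r = -0.85), as did PDIA4 and CRELD2 (r = -0.87) and XBP1 and CRELD2 (r = -0.82).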

How the data were processed

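Total RNA of 2 lymphoma lines was labelled as biotinylated cRNA and measured on 24 arrays, per the labels' protocols; groups, 3 arrays each, were taken from the labels. The authors deposited probe intensity on a linear scale, not scaled between arrays, and gave no detection p-values. A log2 table, also deposited, equals the quantile-normalised log2 of those intensities to within 4.99e-09, which makes it the setting without background correction. Of 47231 probes, 30113 have 1 gene symbol, 8 several and 17110 none; the probe table's names can be old, and 30074 named probes were matched to RefSeq.

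In place of negative controls, 717 probes of families that B cells do not express were used, and a detection p is the share of them at least as bright. Intensities were background-corrected with normexp (limma nec, offset 16), log2-transformed and quantile-normalised over 24 arrays. The filter kept 13642 probes, those whose detection p was below 0.01 on 3 or more arrays, and the brightest probe stood for a gene (2665 genes had more than 1). R 4.3.3 with limma 3.58.1 fitted group means on the 12 arrays of a line, or on all 24 for comparisons between lines, in 11 comparisons. Two-sided p-values were adjusted over 10281 genes by the Benjamini-Hochberg method, with a threshold of 0.05. A fold is a lower bound where no array of a group detected the probe. Precision is limited by having 3 arrays in each group.

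The pipeline was tested on simulated data. The members, context lists and alternatives were chosen with earlier results of these data known. Named genes are all 10 members, the 2 highest and 2 lowest called genes of each of 5 context lists per trabectedin effect, of which examples are printed, and the 5 genes most like HSPA5 and XBP1. Replicate numbers did not pair the arrays: in 12 pairs of same-numbered arrays, deviations from the group mean correlated at r from -0.07 to 0.23, with 3 over 0.1. Promoter windows came from RefSeq (GRCh38.p14). Python 3.11.15 with matplotlib 3.10.9 drew the figures. Alternatives covered scaling, background correction, offset, filter, probe choice, the arrays that set the spread, the replicate number as a block and leaving out each array.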

Additional observations from a re-analysis of the deposited data

Results flagged for a closer look

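The trabectedin effect differed between lines or times, by a test of the difference itself in limma, in 21 results; no explanation was weighed. Between OCI-Ly7 and U2932 at 8 h the differences were -1.75 for HSPA5, 0.85 for XBP1, -0.75 for DNAJB9 and -0.68 for SDF2L1. At 24 h they were -1.59 for HSPA5, 0.97 for HSP90B1, 0.59 for XBP1, -0.60 for DNAJB9, -0.66 for CANX, -0.85 for CALR and -0.46 for PDIA6. Chip and line cannot be told apart in these. Median scaling ended the calls of SDF2L1 and DNAJB9 at 8 h, and of CANX, DNAJB9 and PDIA6 at 24 h. Leaving out 1 array lost the PDIA6 call in 6 of 12 cases. Between 24 h and 8 h in U2932, where all arrays share a chip, the differences were -0.37 for HSPA5, -0.48 for XBP1, 0.78 for DNAJB9, -0.36 for CANX and -1.03 for PDIA4. In OCI-Ly7 they were -0.74 for XBP1, 0.92 for DNAJB9, -0.68 for CANX, -1.36 for CALR and -1.02 for PDIA4, and there the 24 h trabectedin arrays were on a chip of their own. Leaving out 1 array lost the OCI-Ly7 call of XBP1 in 8 of 12 cases and that of CANX in 6 of 12. Median scaling ended the DNAJB9 calls between times in both lines. Other limits are given with each result above.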

How the results depend on the processing

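Median scaling changed most: of 110 single-gene results it reversed 16. Where the sign stayed the same, it ended 14 calls and added 12. Some reversed results also lost or gained a call, and these are not among the 14 and 12. A result counts as reversed where its sign turned and it was called under either setting; 9 more, called under neither, also turned sign, among them DNAJB9 (-0.37) and CANX (-0.64) in OCI-Ly7 at 24 h. The reversed values were, in U2932 at 8 h, DNAJB9 -0.62, CALR -0.26, PDIA6 -0.19 and SDF2L1 -0.26, and at 24 h HSPA5 -0.59, DNAJB9 -0.29, CANX -0.38, PDIA6 -0.72 and SDF2L1 -0.45. In OCI-Ly7 at 24 h CRELD2 was -0.18, and the 8 h line difference of DNAJB9 was 0.0514. Between the lines in DMSO, HSPA5 was -0.78, XBP1 -0.71, DNAJB9 -0.62, PDIA4 -0.69 and SDF2L1 -0.58. Its counts of higher and lower were 2 and 5 in U2932 at 8 h, 0 and 9 at 24 h, 1 and 1 in OCI-Ly7 at 8 h and 0 and 6 at 24 h. For 24 h against 8 h they were 0 and 7 in U2932 and 0 higher in OCI-Ly7, for the line differences 4 and 1 at 8 h and 2 lower at 24 h, for the lines in DMSO 0 and 10, and for culture time 1 higher in U2932 and 0 in OCI-Ly7. The share of all genes under this scaling was computed only for the 4 trabectedin effects, given above. The cause of these changes was not tested.

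No other setting reversed a result. Without background correction 2 effects were higher at 24 h than at 8 h in U2932, and without a filter 1 gene fell in U2932 at 8 h (more genes tested). With the spread from all 24 arrays, 1 effect was lower at 24 h in U2932, 1 gene rose with culture time in U2932 and 2 fell in OCI-Ly7; with the spread from the compared groups only, 1 rose in OCI-Ly7 at 24 h. With the replicate block, 0 genes were higher in OCI-Ly7 in DMSO and 1 rose with culture time in U2932, and the XBP1 time difference in OCI-Ly7 had an adjusted p of 0.0567; it changed no other count by over 1.5 times. Using only the 9 OCI-Ly7 arrays of 1 chip changed no call at 8 h.

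Leaving out 1 array, lower genes in U2932 at 8 h ranged from 1 to 2, higher ones in OCI-Ly7 from 1 to 2 at 8 h and at 24 h, higher time differences in U2932 from 1 to 2, lower ones in OCI-Ly7 from 2 to 4, and higher genes between lines in DMSO from 1 to 2. For culture time, higher genes ranged from 1 to 2 in U2932 and from 0 to 1 in OCI-Ly7, and lower ones in OCI-Ly7 from 0 to 1. Without U2932 DMSO replicate 1 of 8 h, DNAJB9 passed at 8 h (0.28, adjusted p = 0.0210). Low signal limits PDIA4 among the 10 genes, and ATF6, SIL1 and PRDM1, each undetected in a whole group, among the others; PDIA4, SIL1, FICD in OCI-Ly7 and DERL3 in U2932 at 24 h are among those whose change moved by over 1.5 times without background correction.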
